A study of Homo sapiens with 12 samples.

Results

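The genes described here copy the genome and supply its building blocks. The set was assembled by known function, with earlier results of these data known, and holds 47 of the 20003 gene names in the table. There are 20 genes of origin licensing and helicase activation, 19 of the DNA polymerases and the replication fork, 5 of nucleotide supply and 3 regulators of the step from G1 to S phase. All 47 passed the filter on low values, and their levels ran from 0.456 to 224 FPKM, that is, fragments scaled by gene length and library size.

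RNA-seq was used to measure gene expression in 3 established lines, PC9, HCC827 and H1975, derived from non-small-cell lung cancers with activating EGFR mutations. The sample titles add the letters OR to each line name, and the labels do not explain them. The study's title concerns EGFR-targeted therapy, and the design asks what the transcription factor ZNF263 changes in these cells. In each line, cells with a control vector (genotype control) were compared with cells that overexpressed ZNF263 (genotype ZNF263 overexpressed), with 2 libraries per group, 6 groups and 12 libraries. The cells of all 6 groups, controls included, had been grown in DMEM and treated with osimertinib, an EGFR inhibitor, in steps, and no group without the drug was analysed here. The labels do not say whether a line with its vector was 1 clone or a pool, which promoter drove ZNF263, or whether the 2 libraries of a group came from separate cultures. A p-value here therefore reflects just the spread among libraries, and that spread may be technical.

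Replication starts where the origin recognition complex, CDC6 and CDT1 load the MCM2 to MCM7 ring onto DNA in G1. The kinases CDC7 with DBF4 and CDK2 with cyclin E then turn the ring, with CDC45 and the GINS complex, into the moving helicase, and polymerases alpha, delta and epsilon copy the strands. E2F transcription factors switch on many of these genes together, and ribonucleotide reductase makes the deoxynucleotides that the polymerases use.

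ZNF263 itself was higher in every library labelled with it. In PC9 it stood at 9.55 and 9.11 FPKM in the controls and at 39.3 and 39.0 FPKM with the vector. H1975 showed a like gap, from 10.2 and 9.63 FPKM to 39.1 and 39.8 FPKM. In HCC827 the step was smaller, from 13.2 and 11.8 FPKM to 19.6 and 19.8 FPKM.

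Per library, 10672 to 10997 genes were at 1 FPKM or more. For the median gene, 1 FPKM stood for 67.7 to 79.9 reads in libraries of PC9 and HCC827 and for 121 to 131 reads in those of H1975, as recovered from the values. The 3 lines came from tables that appear to have been made separately, so ZNF263 was set against control only within a line, and levels of different lines stand side by side without a test. Epithelial markers differed between the groups in H1975, where 1 of 6 was called higher and 5 were called lower with ZNF263. Their summed level there was 2304 to 2346 FPKM in the controls and 1467 to 1490 FPKM with ZNF263, with no epithelial marker at 0. Of 5 fibroblast markers tested in H1975, 3 were called higher and 2 lower, and the summed level of that list went from 30.9 to 34.2 FPKM up to 175.5 to 179.9 FPKM, with none of them at 0 in every library. In PC9 3 of the 6 epithelial markers were called higher, with sums of 2258 to 2282 FPKM and then 3440 to 3622 FPKM. In HCC827 1 of these 6 was called lower, with sums of 2467 to 2761 FPKM and then 2400 to 2531 FPKM. Of 4 lung epithelial markers, 2 were called higher in PC9 and 3 in HCC827, and 1 was called lower in H1975. Their sums in PC9 were 0.840 to 1.17 FPKM in the controls and 2.32 to 2.53 FPKM with ZNF263. HCC827 had 273 to 305 FPKM and then 377 to 422 FPKM, and H1975 had 32.4 to 38.9 FPKM and then 15.5 to 16.7 FPKM. Leukocyte markers summed to 2.46 to 4.13 FPKM in the H1975 controls and to 19.5 to 22.0 FPKM with ZNF263. Of these 5 markers just 1 passed the filter on low values, and it was called higher in H1975 with a change of 2.40. Endothelial markers stayed below 1 FPKM in every library. The part of these differences in the results below was not tested.

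A gene was called where limma gave an adjusted p under 0.05 over all genes tested, and changes are ZNF263 minus control on the log2(FPKM + 1) scale, with the standard error (SE) of the fit and n = 2 libraries per group. Few members changed in PC9 or HCC827, and many changed in both directions in H1975. In PC9, 2 members rose (MCM6 and TK1) and 2 fell (MCM10 and CDA), which is 8.51% of the members against 11.3% of all genes tested (7.21% higher and 4.12% lower). In HCC827, 1 rose (MCM6) and 3 fell (POLD2, CDA and CCNE1), again 8.51% of the members against 19.5% of all genes (13.0% higher and 6.44% lower). In H1975, 22 members rose and 12 fell, which is 72.3% of the members against 64.2% of all genes (32.1% higher and 32.1% lower). Whether the control and ZNF263 cells of H1975 were the same population apart from the vector was not tested, so each H1975 change is a difference between the libraries so labelled. These shares were not tested against each other.

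The size of the changes was also close to that of other genes. The median change of the 47 members was -0.02 in PC9, -0.04 in HCC827 and 0.06 in H1975, and the medians of all genes tested were 0.00, 0.04 and 0.00. Leaving the sign aside, the median change was 0.07, 0.08 and 0.27 for the members and 0.09, 0.11 and 0.29 for all genes. Under median-of-ratios scaling, 6 members were called lower in HCC827 in place of 3, and the share of higher calls among all genes called in that line went from 66.9% to 45.0% (50.5% after quantile normalization). RNA was taken from whole cultures, so fewer cells in S phase and less RNA per cell cannot be told apart.

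**Figure D1:**
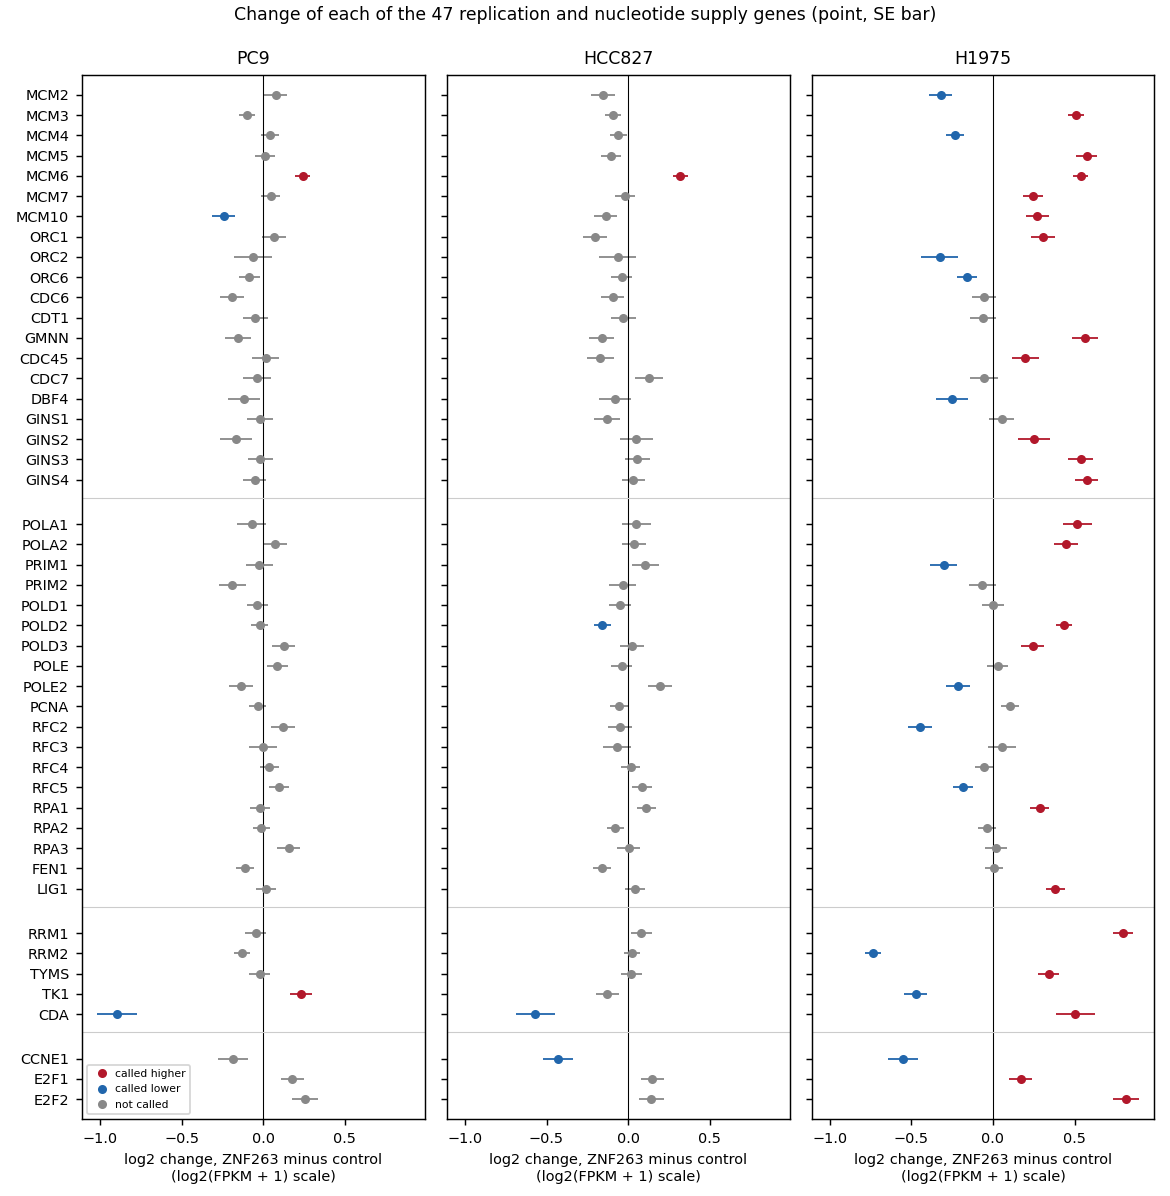
Log2 change (ZNF263 minus control, log2(FPKM + 1) scale) of each of the 47 members in PC9, HCC827 and H1975, with the SE as a bar and the 4 role groups separated by lines. In PC9 and HCC827 most points lie near 0, with CDA and MCM6 apart from it, whereas in H1975 22 members lie to the right and 12 to the left as called genes.

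Among the licensing and helicase genes, MCM6 was called higher in all 3 lines. MCM6 (chr2:135839626-135876426, minus strand, GRCh38) encodes a subunit of the MCM ring. It stood at 42.8 and 42.1 FPKM in the PC9 controls and at 50.3 and 50.4 FPKM with ZNF263. In HCC827 its levels were 31.5 and 31.1 FPKM in the controls and 39.5 and 39.0 FPKM with ZNF263. In H1975 they were 24.5 and 25.02 FPKM and then 36.0 and 36.8 FPKM.

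In each line both ZNF263 libraries lay above both controls, and the libraries of a group lay close together. The change of MCM6 was 0.24 ± 0.05 in PC9 (adjusted p = 0.00487, limma), 0.32 ± 0.05 in HCC827 (adjusted p = 0.000619) and 0.54 ± 0.05 in H1975 (adjusted p = 4.19e-07). The rise was larger in H1975 than in PC9 by 0.30 (adjusted p = 0.00196, limma) and larger than in HCC827 by 0.22 (adjusted p = 0.0123). The PC9 call was lost without control replicate 2, where the change was 0.23 and the adjusted p 0.0598. No other member was called in the same direction in all 3 lines, against 1.1% of all genes called higher and 0.499% called lower in all 3.

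In PC9 and HCC827 none of the other ring subunits, MCM2, MCM3, MCM4, MCM5 and MCM7, passed the test. In H1975 MCM3, MCM5 and MCM7 rose together with MCM6, while MCM2 and MCM4 fell. MCM3 (chr6:52264009-52284881) changed by 0.51 ± 0.05 in H1975 (adjusted p = 1.15e-06, limma) against -0.10 in PC9 and -0.09 in HCC827, neither of them called. MCM7, the most abundant of the 6 in every group, changed by 0.24 ± 0.06 (adjusted p = 0.00351, limma). MCM2 changed by -0.32 ± 0.07 (adjusted p = 0.00175, limma) and MCM4 by -0.23 ± 0.05 (adjusted p = 0.00187).

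MCM5 (chr22:35400063-35425430) had the largest change of the licensing genes by a narrow margin. Its H1975 levels were 23.1 and 21.9 FPKM in the controls and 34.3 and 33.6 FPKM with ZNF263. The groups did not overlap, and the change was 0.57 ± 0.06 (adjusted p = 4.37e-06, limma). In PC9 MCM5 stood at 56.9 and 61.5 FPKM in the controls and at 60.9 and 58.3 FPKM with ZNF263, and in HCC827 at 43.8 and 40.2 FPKM and then at 37.4 and 40.5 FPKM. The groups overlapped in both of these lines.

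Within the ring, levels per length were compared between subunits. The most abundant subunit, MCM7, had 5.11 times the mean FPKM of the least abundant, MCM5, in the H1975 controls and 4.01 times with ZNF263. In the other lines the least abundant subunit varied with the group. The gene lengths used for FPKM are not given and may differ between the lines, so the order of subunits may depend on them. In PC9 MCM7 had 2.68 times the level of MCM6 in the controls and 2.59 times that of MCM2 with ZNF263, and in HCC827 3.36 times that of MCM6 in the controls and 2.66 times that of MCM5 with ZNF263. The summed level of the 6 genes was 399 and 388 FPKM in the H1975 controls and 416 and 422 FPKM with ZNF263. No test was made of these ratios or sums.

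**Figure D2:**
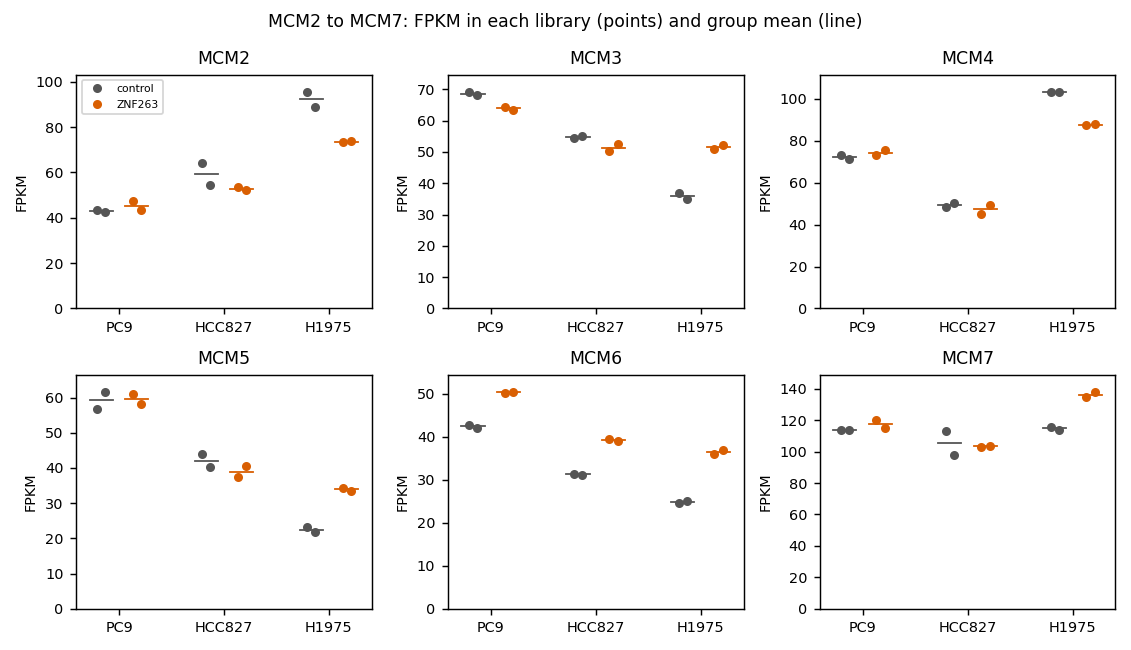
FPKM of MCM2 to MCM7 in each library (points) and the group mean (line), for control (grey) and ZNF263 (orange) in each line, each panel with its own axis from 0. MCM6 is higher with ZNF263 in all 3 lines, and in H1975 MCM3, MCM5 and MCM7 are also higher and MCM2 and MCM4 lower.

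The promoter windows of 3 ring genes are shown because they hold E2F words alike while the genes moved differently. Each window runs from 250 bases before the gene start to 50 after it (RefSeq, GRCh38.p14), written 5′ to 3′ on the strand of the gene. Capitals mark matches, on either strand and with overlaps allowed, to TTTCCCGC, TTTGGCGC, TTTCGCGC or TTTGCCGC, common forms of the E2F site. MCM6 is at chr2:135876394-135876693 (minus strand), MCM3 at chr6:52284693-52284992 (minus strand) and MCM2 at chr3:127598161-127598460 (plus strand).
MCM6: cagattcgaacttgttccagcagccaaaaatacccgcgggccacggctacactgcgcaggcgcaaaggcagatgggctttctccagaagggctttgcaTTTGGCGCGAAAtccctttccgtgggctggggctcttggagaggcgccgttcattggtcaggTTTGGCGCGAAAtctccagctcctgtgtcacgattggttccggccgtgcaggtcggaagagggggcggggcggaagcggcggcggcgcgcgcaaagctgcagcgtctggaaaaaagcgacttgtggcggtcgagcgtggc
MCM3: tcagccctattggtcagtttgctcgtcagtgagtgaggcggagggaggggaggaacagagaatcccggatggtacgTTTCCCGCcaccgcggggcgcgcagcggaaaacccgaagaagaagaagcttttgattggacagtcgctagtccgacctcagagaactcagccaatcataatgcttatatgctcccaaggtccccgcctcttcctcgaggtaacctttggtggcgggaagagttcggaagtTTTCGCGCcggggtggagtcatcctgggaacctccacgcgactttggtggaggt
MCM2: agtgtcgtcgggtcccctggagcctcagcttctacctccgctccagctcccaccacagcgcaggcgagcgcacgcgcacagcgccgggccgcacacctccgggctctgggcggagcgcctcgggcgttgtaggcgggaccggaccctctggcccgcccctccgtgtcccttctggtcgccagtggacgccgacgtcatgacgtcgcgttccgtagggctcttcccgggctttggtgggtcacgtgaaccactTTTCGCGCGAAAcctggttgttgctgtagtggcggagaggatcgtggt

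MCM6, called higher in every line, held a pair of overlapping words starting 152 and 148 bases before the gene start and another pair starting 90 and 86 bases before it. MCM3, called higher in H1975, held words starting 174 and 4 bases before the start. MCM2, called lower in H1975, held a pair of overlapping words just after the start. An E2F word was found in 22 of the 41 members with a window (53.7%). The share was 3.99% of all 27305 genes with a RefSeq window and 6.63% of the 9963 such genes tested here. A gene with several windows was counted if any of them held a word. Among members with a window, 13 of 19 called higher in H1975 held an E2F word, 2 of 11 called lower did, and 7 of 11 not called did. This split was not made for all genes and was not tested. GGAGGAGG, a piece of the known purine-rich ZNF263 motif, was found on either strand in a window of 1 of the 41 members (LIG1, 2.44%). It was found for 12.8% of all genes with a window and 17.4% of those tested. The words were chosen after the values had been seen, and a match describes the letters, not binding.

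Among the loaders of the ring, ORC1, the largest subunit of the origin recognition complex, rose in H1975 by 0.31 ± 0.07 (adjusted p = 0.00246, limma). ORC2 and ORC6 of the same complex fell there, with changes of -0.33 and -0.16, but their calls were lost without H1975 control replicate 2, ZNF263 replicate 1 or ZNF263 replicate 2. CDC6 and CDT1, which load the ring, passed the test in no line. Their changes ran from -0.19 for CDC6 in PC9 to -0.03 for CDT1 in HCC827.

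GMNN (chr6:24774931-24786099) encodes geminin, which binds CDT1 and blocks a second round of licensing. Its H1975 levels were 8.42 and 7.67 FPKM in the controls and 12.2 and 12.6 FPKM with ZNF263, without overlap. In PC9 they were 11.4 and 10.9 FPKM and then 10.004 and 9.86 FPKM, and in HCC827 7.13 and 8.44 FPKM and then 6.55 and 7.11 FPKM. Both of these lines had the lower values with ZNF263, but neither change passed the test. The H1975 change was 0.57 ± 0.08 (adjusted p = 3.80e-05, limma), and it exceeded that of HCC827 by 0.73 (adjusted p = 0.000132).

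MCM10, a fork loading factor that is not part of the ring, moved in opposite directions. PC9 held 21.4 and 20.7 FPKM in the controls and 17.3 and 17.9 FPKM with ZNF263. In HCC827 the values were 3.16 and 3.65 FPKM and then 2.96 and 3.04 FPKM. In H1975 they were 6.41 and 6.09 FPKM and then 7.60 and 7.90 FPKM. The PC9 libraries with ZNF263 were thus the lower ones and the H1975 libraries with ZNF263 the higher ones.

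The change of MCM10 was -0.24 ± 0.07 in PC9 (adjusted p = 0.0421, limma), -0.14 in HCC827 (adjusted p = 0.196) and 0.27 ± 0.07 in H1975 (adjusted p = 0.00408). The difference between H1975 and PC9 was 0.51 (adjusted p = 0.000768, limma). The PC9 call was lost when any 1 of the 4 PC9 libraries was left out, and under 5 of the 10 alternatives that kept all libraries.

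Of the kinase and helicase activators, GINS4 (chr8:41529206-41545046), a subunit of the GINS complex, changed most. Its H1975 levels were 10.8 and 10.3 FPKM in the controls and 16.5 and 15.9 FPKM with ZNF263. In PC9 they were 19.3 and 19.0 FPKM and then 18.5 and 18.4 FPKM, and in HCC827 9.48 and 9.74 FPKM and then 9.06 and 10.7 FPKM. H1975 alone of the lines gave a called change, 0.57 ± 0.07 (adjusted p = 1.10e-05, limma), and it exceeded that of PC9 by 0.63 (adjusted p = 0.000166) and that of HCC827 by 0.54 (adjusted p = 0.000507).

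GINS3 also rose in H1975, by 0.54 ± 0.08 (adjusted p = 3.88e-05, limma). GINS2 rose by 0.25 (adjusted p = 0.0412, limma), a call lost without any 1 of the H1975 libraries, and GINS1 gave 0.05 and did not pass. CDC45, which completes the helicase with GINS, rose by 0.20 (adjusted p = 0.0488, limma), but that call was lost without control replicate 1, control replicate 2 or ZNF263 replicate 2 of H1975. DBF4, the activating subunit of the CDC7 kinase, gave -0.25 (adjusted p = 0.0377, limma), lost without H1975 control replicate 1, control replicate 2 or ZNF263 replicate 1. CDC7 itself gave -0.05 and did not pass.

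The polymerase and fork genes had no called member in PC9 and 1 in HCC827, where 11.3% and 19.5% of all genes were called. The HCC827 gene was POLD2, a small subunit of polymerase delta, with a change of -0.16 ± 0.05 (adjusted p = 0.0451, limma). This call was lost when any 1 of the 4 HCC827 libraries was left out, and under 5 of the 10 alternatives that kept all libraries. At an unadjusted p under 0.05, 2 of the 19 genes passed in PC9 by limma. In H1975, 6 of the 19 rose, 4 fell and 9 did not pass, with a median change of 0.02. The share called was 52.6%, against 64.2% of all genes.

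Polymerase alpha and its primase, which start each new strand, split by subunit in H1975. POLA1 (chrX:24693919-24996986), the catalytic subunit, stood at 4.06 and 4.05 FPKM in the controls and at 6.11 and 6.33 FPKM with ZNF263. POLA2 (chr11:65261762-65305589), its accessory subunit, stood at 11.3 and 10.8 FPKM in the controls and at 16.0 and 14.8 FPKM with ZNF263. Both were separated by group in H1975, with changes of 0.52 ± 0.09 (adjusted p = 0.000231, limma) for POLA1 and 0.45 ± 0.07 (adjusted p = 0.000156) for POLA2. POLA2 overlaps another annotated gene, AP000944.2, on its own strand by 43662 bases, so its reads may be split or shared in counting.

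Neither passed in the other lines. POLA1 stood at 12.98 and 12.4 FPKM in the PC9 controls and at 11.2 and 12.9 FPKM with ZNF263, and at 3.07 and 3.90 FPKM and then 3.68 and 3.57 FPKM in HCC827. POLA2 stood at 14.0 and 13.4 FPKM and then 14.6 and 14.4 FPKM in PC9, and at 6.998 and 5.94 FPKM and then 6.55 and 6.73 FPKM in HCC827. The primase subunit PRIM1 fell in H1975 with a change of -0.30 ± 0.08 (adjusted p = 0.00645, limma), a call lost without H1975 ZNF263 replicate 1 (adjusted p = 0.083), and PRIM2 gave -0.07 and did not pass. PRIM1 overlaps AC117378.1 on its own strand by 9940 bases.

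RFC2 (chr7:74231499-74254458), a subunit of the clamp loader that places PCNA on DNA, fell most of the fork genes. In H1975 it stood at 58.5 and 60.5 FPKM in the controls and at 39.9 and 47.04 FPKM with ZNF263. In PC9 it stood at 34.1 and 33.4 FPKM and then at 37.3 and 36.1 FPKM, and in HCC827 at 33.7 and 30.4 FPKM and then at 30.1 and 31.7 FPKM. The H1975 libraries with ZNF263 were the low ones, with a change of -0.45 ± 0.07 (adjusted p = 0.000145, limma), and this differed from PC9 by -0.57 (adjusted p = 0.000531).

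The other clamp loader subunits did not follow RFC2 as a group in H1975. RFC5 changed by -0.19 (adjusted p = 0.0177, limma), a call lost without H1975 control replicate 2 or ZNF263 replicate 1, while RFC3 gave 0.06 and RFC4 -0.05, neither of them called. PCNA, the sliding clamp and the member with the highest level, stood at 202 and 209 FPKM in the H1975 controls and at 218 and 224 FPKM with ZNF263. Its change of 0.11 ± 0.05 did not pass (adjusted p = 0.112, limma).

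Of the polymerases that extend the strands, POLD2 rose in H1975 by 0.44 ± 0.05 (adjusted p = 6.56e-06, limma) and POLD3, another subunit of polymerase delta, by 0.24 (adjusted p = 0.0103). The POLD3 call was lost without H1975 control replicate 1 or ZNF263 replicate 2. The catalytic subunits POLD1 and POLE gave 0.00 and 0.03 and did not pass, and POLE2, a subunit of polymerase epsilon, changed by -0.21 (adjusted p = 0.0187, limma), lost without control replicate 1 or ZNF263 replicate 1. RPA1, which coats single-stranded DNA, rose by 0.29 ± 0.06 (adjusted p = 0.000838, limma), whereas its partners RPA2 and RPA3 gave -0.04 and 0.02. LIG1, the ligase that seals lagging strand fragments, rose by 0.38 ± 0.06 (adjusted p = 0.000102, limma), and the nuclease FEN1 gave 0.01 and did not pass.

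In nucleotide supply, the 2 subunits of ribonucleotide reductase moved in opposite directions in H1975. RRM1 (chr11:4094707-4138876), the large subunit with the active site, stood at 32.4 and 35.5 FPKM in the controls and at 59.4 and 59.8 FPKM with ZNF263. RRM2 (chr2:10120698-10131419), the small subunit that carries the radical, stood at 121 and 117 FPKM in the controls and at 70.6 and 71.5 FPKM with ZNF263. Every library of each gene was on its side of the gap. RRM2 overlaps AC007240.1 on its own strand by 8681 bases, so its reads may be split or shared in counting.

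The change was 0.80 ± 0.06 for RRM1 (adjusted p = 1.96e-07, limma) and -0.74 ± 0.05 for RRM2 (adjusted p = 3.58e-08). The ratio of RRM2 to RRM1 was 3.74 and 3.30 in the 2 H1975 controls and 1.19 in both ZNF263 libraries. In PC9 that ratio was 2.56 and 2.48 in the controls and 2.48 and 2.28 with ZNF263, and in HCC827 it was 1.87 and 1.82 and then 1.72 and 1.83. No test was made of the ratio.

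Neither subunit was called in PC9 or HCC827. RRM1 stood at 37.9 FPKM in both PC9 controls and at 34.9 and 38.5 FPKM with ZNF263, and at 26.1 and 28.3 FPKM and then 29.2 and 28.5 FPKM in HCC827. RRM2 stood at 96.7 and 93.9 FPKM and then 86.6 and 87.6 FPKM in PC9, and at 48.9 and 51.6 FPKM and then 50.1 and 52.2 FPKM in HCC827. The H1975 change differed from that of PC9 by 0.84 for RRM1 (adjusted p = 5.86e-06, limma) and by -0.61 for RRM2 (adjusted p = 1.04e-05).

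CDA (chr1:20588948-20618908) encodes cytidine deaminase, a salvage enzyme that turns cytidine and deoxycytidine into their uridine forms. It fell in PC9 and HCC827 and rose in H1975. PC9 held 3.12 and 4.32 FPKM in the controls and 1.72 and 1.33 FPKM with ZNF263. HCC827 held 34.8 and 29.3 FPKM and then 19.6 and 22.9 FPKM, and H1975 46.5 and 45.7 FPKM and then 64.6 and 67.0 FPKM.

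The groups did not overlap in any line. The change of CDA was -0.90 ± 0.12 in PC9 (adjusted p = 0.000369, limma), -0.57 ± 0.12 in HCC827 (adjusted p = 0.00589) and 0.50 ± 0.12 in H1975 (adjusted p = 0.00247). The H1975 change differed from that of PC9 by 1.40 ± 0.17 (adjusted p = 1.84e-05, limma) and from that of HCC827 by 1.07 ± 0.17 (adjusted p = 0.000166). The HCC827 call was lost without control replicate 1 (adjusted p = 0.0568, limma) or ZNF263 replicate 1 (adjusted p = 0.0741), and the PC9 call was lost when PC9 was fitted alone (adjusted p = 0.0832). The lowest PC9 value rested on 24 recovered reads, the fewest behind any member value.

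The CDA window is shown beside that of E2F2, since each held 1 E2F word and both genes rose in H1975, while in PC9 CDA fell and E2F2 was not called. CDA is at chr1:20588847-20589146 (plus strand) and E2F2 at chr1:23531184-23531483 (minus strand), with capitals as above. The word starts 3 bases before the gene start in CDA and 42 bases before it in E2F2.
CDA: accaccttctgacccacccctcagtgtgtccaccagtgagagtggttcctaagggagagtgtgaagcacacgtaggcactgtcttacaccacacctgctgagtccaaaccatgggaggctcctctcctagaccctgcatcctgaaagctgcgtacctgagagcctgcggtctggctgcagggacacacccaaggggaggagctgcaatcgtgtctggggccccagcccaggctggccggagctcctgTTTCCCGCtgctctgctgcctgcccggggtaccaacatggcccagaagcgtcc
E2F2: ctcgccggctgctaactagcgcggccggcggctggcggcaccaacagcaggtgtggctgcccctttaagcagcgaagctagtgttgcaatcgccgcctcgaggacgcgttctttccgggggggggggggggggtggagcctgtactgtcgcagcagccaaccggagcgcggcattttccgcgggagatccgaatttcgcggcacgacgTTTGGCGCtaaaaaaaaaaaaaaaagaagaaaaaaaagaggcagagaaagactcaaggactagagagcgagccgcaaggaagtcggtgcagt

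TK1 (chr17:78174075-78187233), the thymidine kinase of S phase, rose in PC9 and fell in H1975. It stood at 83.4 and 84.5 FPKM in the PC9 controls and at 99.9 and 97.3 FPKM with ZNF263. H1975 held 92.4 and 87.3 FPKM and then 64.4 FPKM in both ZNF263 libraries, and HCC827 held 104 and 87.7 FPKM and then 85.7 and 89.3 FPKM.

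HCC827 was the line in which the groups overlapped. The change of TK1 was 0.23 ± 0.07 in PC9 (adjusted p = 0.0494, limma) and -0.47 ± 0.07 in H1975 (adjusted p = 5.14e-05), and these differed by -0.70 (adjusted p = 5.66e-05). The PC9 call was lost when any 1 of the 4 PC9 libraries was left out. It was also lost under 7 of the 10 alternatives that kept all libraries, among them other pseudocounts and median-of-ratios scaling. TK1 was the 1 member whose change differed between HCC827 and PC9, by -0.36 (adjusted p = 0.0378, limma), against 9.6% of all genes. TYMS, thymidylate synthase, rose in H1975 by 0.34 ± 0.07 (adjusted p = 0.000473, limma) and gave -0.02 in PC9 and 0.02 in HCC827. TYMS overlaps ENOSF1 on the other strand by 3255 bases, and since the strand setting of the counting is not given, reads of the 2 genes may not be told apart.

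All 3 G1 to S regulators were called in H1975, where 64.2% of all genes were called, with E2F1 at the edge. E2F2 (chr1:23506430-23531220), an activator of the E2F family, stood at 0.456 and 0.614 FPKM in the H1975 controls and at 1.65 and 1.75 FPKM with ZNF263. PC9 held 4.10 and 4.28 FPKM and then 5.33 and 5.06 FPKM, and HCC827 2.58 and 2.34 FPKM and then 2.94 and 2.70 FPKM. In every line both ZNF263 libraries were the higher ones.

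The change of E2F2 was 0.82 ± 0.08 in H1975 (adjusted p = 1.12e-06, limma), the largest rise of any member. It was 0.26 ± 0.08 in PC9 (adjusted p = 0.0535, limma) and 0.14 ± 0.08 in HCC827 (adjusted p = 0.23), neither called, and the H1975 change exceeded that of HCC827 by 0.67 (adjusted p = 0.000214). Since the controls lay under the pseudocount of 1 FPKM, this scale understates the change, which was 1.51 with a pseudocount of 0.1.

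E2F1 (chr20:33675683-33686404), the best known activator of the family, gave a like change in each line. It stood at 26.6 and 23.5 FPKM in the PC9 controls and at 29.3 and 27.5 FPKM with ZNF263. HCC827 held 26.7 and 24.5 FPKM and then 29.3 and 27.6 FPKM, and H1975 23.9 and 22.6 FPKM and then 26.4 and 26.0 FPKM. The ZNF263 libraries were above the controls in each line. The changes were 0.18 ± 0.07 in PC9 (adjusted p = 0.131, limma), 0.15 ± 0.07 in HCC827 (adjusted p = 0.162) and 0.17 ± 0.07 in H1975 (adjusted p = 0.0488), and the H1975 call was lost without any 1 of its 4 libraries.

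CCNE1 (chr19:29811898-29824308), cyclin E1, was lower with ZNF263 in every library pairing within a line. It stood at 23.0 and 21.4 FPKM in the PC9 controls and at 18.9 and 19.9 FPKM with ZNF263. HCC827 held 7.06 and 6.57 FPKM and then 4.59 and 5.01 FPKM, and H1975 12.98 and 13.9 FPKM and then 9.998 and 7.82 FPKM. The fall passed the test in HCC827, with a change of -0.43 ± 0.09 (adjusted p = 0.00693, limma), and in H1975, with -0.55 ± 0.09 (adjusted p = 0.000188). In PC9 the change was -0.19 ± 0.09 (adjusted p = 0.245, limma). The HCC827 call was lost without ZNF263 replicate 1 (adjusted p = 0.0696, limma) and when the line was fitted alone (adjusted p = 0.0563).

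**Figure D3:**
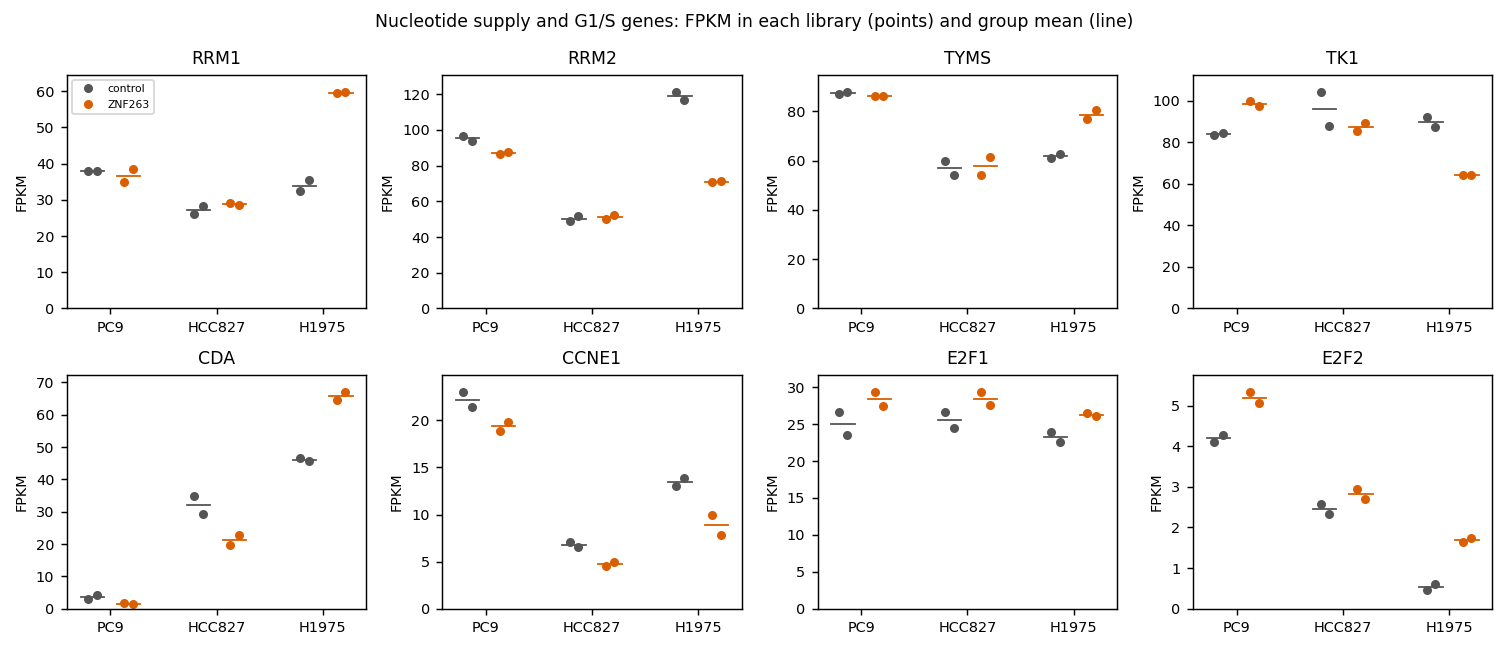
FPKM of the 5 nucleotide supply genes and the 3 G1 to S regulators in each library (points) and the group mean (line), for control (grey) and ZNF263 (orange) in each line, each panel with its own axis from 0. RRM1 and RRM2 move apart in H1975, and CDA is lower with ZNF263 in PC9 and HCC827 and higher in H1975.

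Counting direction alone, both ZNF263 libraries lay above both controls in all 3 lines for E2F1, E2F2, MCM6 and POLD3, and below them for CCNE1. That is 4 and 1 of 47 members, against 6.92% and 3.78% of all genes. In H1975 the groups were apart for 38 of the 47 members, 24 of them higher (41.7% of all genes) and 14 lower (40.8%). In PC9, 13 members were apart and higher (28.4% of all genes) and 15 apart and lower (29.2%). In HCC827, 7 were apart and higher (35.2% of all genes) and 12 apart and lower (18.7%). The 13 members called in no line by the main fit were CDC6, CDT1, CDC7, GINS1, PRIM2, POLD1, POLE, PCNA, RFC3, RFC4, RPA2, RPA3 and FEN1. Some of them were called under other settings. FEN1 was called lower in HCC827 with median-of-ratios scaling, and PCNA higher in H1975 with quantile normalization.

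The change differed between the lines for 27 of the 47 members by limma's F test (57.4%), against 60.3% of all genes. For 24 members the H1975 change differed from that of PC9, against 54.1% of all genes, and for 24 it differed from that of HCC827, against 53.7%.

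In H1975 the genes beside a member on its chromosome often moved with it. The median change of 50 neighbouring tested genes, 25 on each side except near a chromosome end, ran from -0.42 around RRM2 to 0.46 around MCM5, whereas it ran from -0.08 to 0.06 in PC9 and from -0.09 to 0.15 in HCC827. For 25 of the 34 members called in H1975, that median had the sign of the member's own change. The same count was not made for all genes called. The neighbours of GMNN gave 0.40, those of CDC45 0.41, those of RRM1 0.33, those of PRIM1 -0.40 and those of MCM6 -0.10.

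With the median of the neighbours subtracted, 15 of the 22 H1975 members called higher and 8 of the 12 called lower were still called in that direction. Of all genes in H1975, 6961 of 12236 were called after the subtraction, against 7870 of 12258 before it. RRM1 then gave 0.47, RRM2 -0.32, MCM6 0.64, E2F2 0.74 and TK1 -0.54, all still called. Calls after the subtraction came from a t test of the subtracted change on the SE of the limma fit. The neighbours' median was taken there as free of error, so the p-values understate the spread. The calls of MCM5 (0.11, adjusted p = 0.144, t test), GMNN (0.17, adjusted p = 0.0888) and MCM10 (0.01, adjusted p = 0.909) were lost, as were those of ORC1, ORC2, DBF4 and E2F1. CDC45 turned to -0.22 (adjusted p = 0.0381, same t test), and PRIM1 (0.10), RFC5 (0.09) and POLD3 (-0.02) changed sign without being called. Why neighbouring genes moved together in H1975 was not tested.

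**Figure D4:**
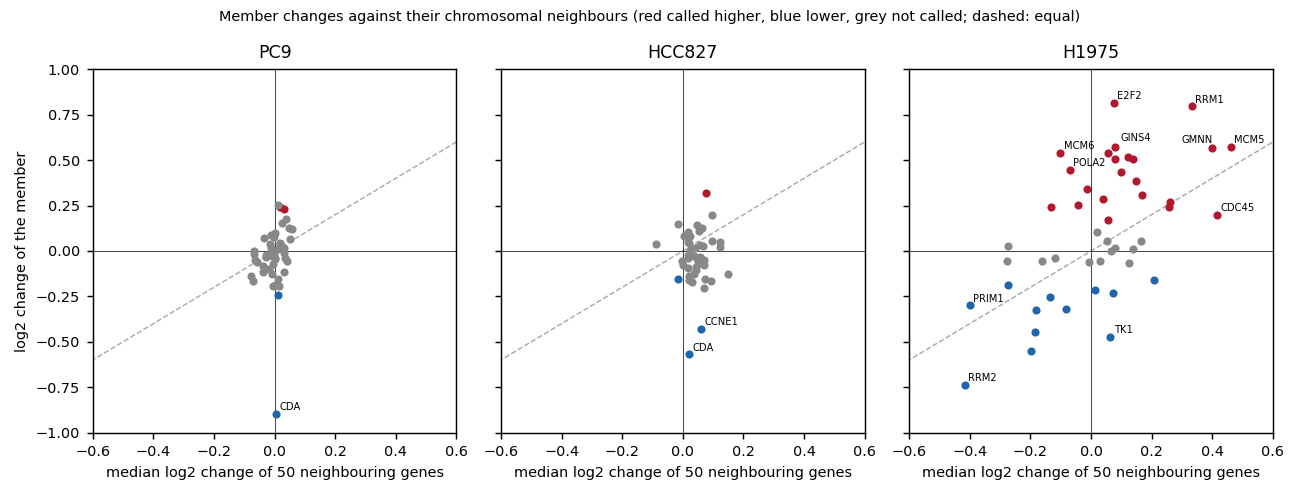
Log2 change of each member (vertical axis) against the median log2 change of its 50 neighbouring tested genes (horizontal axis) in each line, coloured by call, with a dashed line where the values are equal. The medians spread from -0.42 to 0.46 in H1975 and lie close to 0 in PC9 and HCC827. MCM5, GMNN and CDC45 have the highest medians and RRM2 and PRIM1 the lowest.

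Other genes of these pathways, listed by function, are given by their counts, beside the shares of all genes called in each line (11.3% in PC9, 19.5% in HCC827 and 64.2% in H1975). Their changes are given before subtraction of the neighbours' median. Among 12 other licensing and origin factors, none was called in PC9 or HCC827 by limma (0 in either line also at an unadjusted p under 0.05). In H1975, 3 of them rose and 5 fell. CDK2, the partner of cyclin E, changed there by -0.66, where its neighbours gave -0.40. Among other fork factors, 2 of 23 rose and 2 fell in PC9, 1 of 22 rose and 2 fell in HCC827, and 10 of 22 rose and 7 fell in H1975. RNASEH2A, which removes RNA primers as part of RNase H2, changed by 0.33 in PC9 and 0.81 in H1975. DNMT1, the maintenance DNA methyltransferase, changed by 0.68 in H1975. The H1975 neighbours of RNASEH2A gave 0.47 and those of DNMT1 0.37.

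Of 17 other deoxynucleotide and thymidylate genes, 1 rose and 1 fell in PC9, 1 rose and 4 fell in HCC827, and 5 rose and 8 fell in H1975. RRM2B, the alternative small subunit of ribonucleotide reductase, fell in H1975 with a change of -0.59, but its neighbours gave -0.51. The mitochondrial thymidine kinase TK2 rose there by 0.85, where its neighbours gave 0.10. Of 16 genes of de novo purine and pyrimidine synthesis, 1 fell in PC9, 3 fell in HCC827, and 6 rose and 7 fell in H1975. None rose in PC9 or HCC827 by limma, and at an unadjusted p under 0.05 none did in PC9 and 1 did in HCC827. PPAT, which starts purine synthesis, changed by -0.45 in PC9, and ADSL, a later enzyme of that path, by 0.92 in H1975.

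Nucleoside salvage and breakdown genes moved in both directions in HCC827 and H1975. In PC9 2 of 10 fell by limma and none rose, at an unadjusted p under 0.05 either, in HCC827 2 rose and 6 fell, and in H1975 4 rose and 5 fell. UPP1, which breaks down uridine, fell in all 3 lines, by limma, with -0.34 in PC9, -0.69 in HCC827 and -0.96 in H1975. NT5E, which makes adenosine outside the cell, fell in PC9 (-0.31) and H1975 (-1.12) and rose in HCC827 (0.27, adjusted p = 0.0358, limma).

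Of 20 other G1 to S regulators, 2 rose and 3 fell in PC9, 4 rose and 4 fell in HCC827, and 8 rose and 10 fell in H1975. CCND1, cyclin D1, fell in all 3 lines, by limma, with -0.30 in PC9, -0.39 in HCC827 and -1.93 in H1975. CDKN1A, the inhibitor of cyclin-dependent kinases p21, changed by -1.999 in H1975. Of 20 transcripts of later S phase, G2 and mitosis, 1 rose in PC9, 2 rose and 1 fell in HCC827, and 9 rose and 4 fell in H1975. TOP2A, topoisomerase II alpha, rose by 0.37 in HCC827, and KIF20A, a mitotic kinesin, by 0.66 in H1975.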

How the data were processed

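The authors deposited 1 table of FPKM values with a column for each of the 12 libraries, and the genome build was GRCh38.p13, per the submitters' processing notes. Per the labels' protocols, TRIZOL served to extract the RNA and a SMARTER mRNA-seq kit to make the libraries. The sources used here do not give the aligner, the counter, the annotation or the strand setting. Of 20030 entries, 27 whose names had become dates were left out. In HCC827 3383 names and in H1975 3339 names had no value, whereas PC9 had a value for each. The values of the lines thus appear to have been made separately. All 12 libraries still entered 1 filter and 1 fit, in which the lines shared the estimate of spread. Library totals are not given. Read numbers were recovered from the values as whole multiples of 1 read (tolerance 0.002 of a read); this succeeded for 99.0% to 99.5% of 1500 genes per line, against at most 0.333% after shuffling. All member values were whole by this measure and rested on 24 to 14474 reads, with a median of 1460, where all reads of a gene may share an unknown common factor.

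Genes that reached 1 FPKM in 2 libraries or more were kept and analysed as log2(FPKM + 1), a scale that understates the change of low genes. Groups came from the cell line and genotype labels. ZNF263 minus control was fitted in each line with limma 3.58.1 in R 4.3.3, with 6 group means, a trended prior variance and 6 residual degrees of freedom, two-sided. The Benjamini-Hochberg adjustment ran over all genes of a contrast. Differences between lines were tested in the same fit. The scripts were tested on simulated data.

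Levels of every library are given for the 3 members of each role group with the largest absolute change in a line, for members called alike in all 3 lines and for members called in PC9. From each other list, the 2 called genes with the largest absolute change in a line could be named. The members and lists were chosen with earlier results of these data known. Gene positions are from GENCODE 29 and promoter windows from RefSeq GRCh38.p14; no sequence was printed for the 6 members without a window. Among the members, 14 overlap another protein-coding gene in GENCODE, 11 on the opposite strand, where the unknown strand setting matters, and 5 on the same strand, where no strand setting would separate the reads. The alternatives were other pseudocounts, filters, scalings, a replicate block, single-line fits, an untrended prior, subtraction of the neighbours' median and leaving out each library.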

Additional observations from a re-analysis of the deposited data

Results flagged for a closer look

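For 27 of the 47 members the change with ZNF263 differed between the lines by limma's F test (adjusted p under 0.05), a share of 57.4% against 60.3% of all genes tested. The values below are the largest difference between a pair of lines, on the log2(FPKM + 1) scale. H1975 was one side of each, and no member had its largest difference between HCC827 and PC9. Relative to PC9, the H1975 change was more positive for MCM3 (0.61), MCM6 (0.30), MCM10 (0.51), GINS3 (0.55), GINS4 (0.63), POLA1 (0.59), RPA1 (0.31), LIG1 (0.37), RRM1 (0.84), TYMS (0.36) and CDA (1.40). It was more negative than in PC9 for MCM2 (-0.40), MCM4 (-0.27), RFC2 (-0.57), RFC5 (-0.28) and TK1 (-0.70). Relative to HCC827, it was more positive for MCM5 (0.68), MCM7 (0.26), ORC1 (0.51), GMNN (0.73), CDC45 (0.37), POLA2 (0.41), POLD2 (0.59) and E2F2 (0.67). It was more negative than in HCC827 for PRIM1 (-0.40), POLE2 (-0.41) and RRM2 (-0.76). With 2 libraries per group, no group was large enough to look for a library that stands apart from its own group.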

How the results depend on the processing

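No called member changed direction under another pseudocount, filter, scaling, fit or set of libraries. Subtraction of the neighbours' median turned 4 in H1975, CDC45 (-0.22), PRIM1 (0.10), POLD3 (-0.016) and RFC5 (0.088). With that subtraction POLE and RFC4 became called higher in H1975. Of the 34 calls in H1975, 20 held under every alternative run and 24 whenever a library was left out; in HCC827 MCM6 alone held throughout, and in PC9 none of 4 did. Members called higher in PC9 numbered 1 in place of 2 with a pseudocount of 0.1 or 0.5, no filter, median-of-ratios scaling or neighbours subtracted. E2F2 became called higher in PC9 with a filter at 5 FPKM or with an untrended prior. It reached 5 FPKM only in the 2 PC9 libraries with ZNF263 (5.33 and 5.06 FPKM). E2F2 thus passed that filter only through the group where it was high, and the call under it adds no support. Members called lower in PC9 numbered 1 in place of 2 with either pseudocount or quantile normalization and 0 when PC9 was fitted alone. In HCC827 3 lower calls became 6 with median-of-ratios scaling, 7 with neighbours subtracted and 1 when the line was fitted alone. Fitted alone, PC9 had 407 calls among all genes and HCC827 634, against 1430 and 2386, with fewer libraries to estimate the spread. Without 1 library at a time, PC9 had 0 to 1 members higher and 1 lower, HCC827 1 to 3 higher and 0 to 5 lower, and H1975 18 to 20 higher and 6 to 10 lower. The 0 in PC9 came without control replicate 2, the 0 in HCC827 without ZNF263 replicate 1, and the 6 in H1975 without ZNF263 replicate 1. In HCC827 the 3 higher and the 5 lower came without control replicate 2. All genes called without 1 library numbered 591 to 854 in PC9, 1082 to 3109 in HCC827 and 6886 to 6970 in H1975. Where a lone library was left in a group, it was assumed to vary like the other groups. Beyond the fewer libraries of some fits, the cause of these shifts was not tested. Libraries with the same number did not deviate together (the correlation was 0.04 in PC9, 0.09 for HCC827 and -0.04 for H1975), so the numbers were not taken as pairs. With the number as a replicate block, 1 member was called higher and 1 lower in PC9, 1 higher and 2 lower in HCC827, and 21 higher and 12 lower in H1975.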
